A study of Mus musculus with 29 samples.

Results

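The mitosis and spindle genes described here are 42 genes that were chosen by name, as mitotic kinases and cyclins, checkpoint and anaphase regulators, the chromosomal passenger complex, kinetochore and centromere proteins, kinesins and other spindle proteins, cytokinesis proteins, and condensins with other chromosome proteins. All 42 were found by symbol among the 55376 gene symbols counted, and all 42 were among the 33690 genes that passed the filter on low counts. RNA-seq of hematopoietic stem cells (HSCs) gave 19 libraries, of which 4 were from young wild type mice (YWT), 4 from old wild type mice (OWT), 4 from young Gadd45b knockout mice (YKO) and 7 from old Gadd45b knockout mice (OKO). The knockout is carried in the germline, so every cell of the animal has it, and the bulk cells were sorted from bone marrow as Lin- cKit+ Sca1+ CD34- Flk2- CD150+. All libraries are labelled female, whereas the study's methods state that both sexes were included, and the labels give age as young or old only. The titles of the OWT libraries and of OKO4 to OKO7 carry the prefix IB15, and those of YWT, YKO and OKO1 to OKO3 do not, so that in the wild type age cannot be told apart from this title set. A sample summary of the study lists both sexes among the OKO libraries and puts OKO1 to OKO3 in 1 batch with YKO1 to YKO4, and OKO4 to OKO7 in another.

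In dividing cells, Cdk1 with its cyclins starts mitosis, condensins compact the chromosomes, kinetochores tie them to the spindle, and the checkpoint holds back separase until every chromosome is attached. Transcripts of these genes build up as a cell passes from DNA replication to mitosis and are nearly absent from resting cells. Most HSCs of adult bone marrow rest outside the cell cycle, so in a bulk sample the level of these transcripts follows how many cells cycle and how much of each transcript a cycling cell holds, and fewer such cells cannot be told apart from less RNA per cell.

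Library totals ranged from 22197555 to 77970627 counts, and the lowest count of any of the 42 genes in any library was 91, for Ttk in OKO3. All 10 listed HSC markers were detected in every library. Levels are given as CPM, the read count relative to a library size scaled by the TMM method, whose factors were 1.24 to 1.83 in OKO1, OKO2 and OKO3 and 1.22 in YWT4, above those of the other libraries. Gadd45b itself was at 5.14 to 14.3 CPM in YKO and 7.34 to 17.5 CPM in YWT, which overlapped, and at 2.84 to 6.94 CPM in OKO and 10.1 to 15.5 CPM in OWT, which did not. Which exons the knockout allele lacks was not used here, so the count over the whole gene is no check of the genotype labels.

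The 42 genes lie on 16 chromosomes of the mm10 build. Of the genes that the results turn on, Espl1 (ENSMUSG00000058290.4, chr15:102296266-102324357, plus strand) and Ncapd2 (ENSMUSG00000038252.13, chr6:125168007-125191701, minus strand) are the pair past the threshold in the comparison of old with young knockout cells. Of these, 35 had a promoter entry in RefSeq (GRCm38.p6, from 250 bases before to 50 bases after the gene start). Mitotic genes are known for a promoter element called the cell cycle genes homology region, or CHR, and for CCAAT boxes upstream of it. A CHR, searched as TTTGAA or TTCGAA on both strands, was present in 27 of the 35 promoters (77.1%), against 19.4% of 27025 genes with 1 promoter each. A CCAAT box, searched as CCAAT on both strands, was present in 26 (74.3%) against 37.9%, and both were present in 24 (68.6%) against 7.7%. Neither motif contains the other. The 5 promoters printed next hold both motifs and belong to genes whose levels are described below by library. Each runs from 200 bases before to 30 bases after the gene start, 5′ to 3′ along the gene, with the matches to CHR and CCAAT in either direction in capitals.
Top2a: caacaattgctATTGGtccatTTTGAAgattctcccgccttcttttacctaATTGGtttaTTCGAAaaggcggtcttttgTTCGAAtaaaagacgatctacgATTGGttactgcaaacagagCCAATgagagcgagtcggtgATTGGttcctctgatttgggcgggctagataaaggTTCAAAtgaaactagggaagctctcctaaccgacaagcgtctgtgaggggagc
Ncapd2: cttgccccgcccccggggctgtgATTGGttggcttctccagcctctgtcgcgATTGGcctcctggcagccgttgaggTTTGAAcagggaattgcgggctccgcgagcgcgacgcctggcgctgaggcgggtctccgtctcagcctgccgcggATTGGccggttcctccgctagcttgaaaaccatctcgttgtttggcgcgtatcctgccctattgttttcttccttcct
Cdc20: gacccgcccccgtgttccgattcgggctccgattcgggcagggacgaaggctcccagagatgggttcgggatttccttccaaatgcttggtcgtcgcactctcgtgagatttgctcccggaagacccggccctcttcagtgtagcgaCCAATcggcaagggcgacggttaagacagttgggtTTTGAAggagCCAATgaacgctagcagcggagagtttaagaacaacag
Cenpa: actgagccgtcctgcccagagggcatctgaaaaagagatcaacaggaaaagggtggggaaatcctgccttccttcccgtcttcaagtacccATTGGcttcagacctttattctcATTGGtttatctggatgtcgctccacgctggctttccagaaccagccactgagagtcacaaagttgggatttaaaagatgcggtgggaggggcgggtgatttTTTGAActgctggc
Espl1: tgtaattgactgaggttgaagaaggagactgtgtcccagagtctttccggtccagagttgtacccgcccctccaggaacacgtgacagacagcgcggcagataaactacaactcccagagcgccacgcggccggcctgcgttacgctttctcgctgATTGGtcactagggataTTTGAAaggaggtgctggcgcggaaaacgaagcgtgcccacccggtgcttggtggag
These windows lie at chr11:99024160-99024389 (minus strand) for Top2a, chr6:125191557-125191786 (minus strand) for Ncapd2, chr4:118437314-118437543 (minus strand) for Cdc20, chr5:30666686-30666915 (plus strand) for Cenpa and chr15:102296093-102296322 (plus strand) for Espl1. The window of Top2a holds 4 CHR and 5 CCAAT matches, and that of Espl1 holds 1 of each. Over the 35 promoters, 27 of 37 CHR matches and 38 of 53 CCAAT matches began within 100 bases of the gene start. Neither motif was found in the 300 bases of Pttg1, Nuf2, Nusap1, Ncaph, Mad2l1 or Birc5. The window of Pttg1 (chr11:43425932-43426231, minus strand) lies wholly downstream of the gene start at 43426251 in GENCODE M21, the annotation used for gene positions. That of Mad2l1 (plus strand) ends at 66535270, upstream of its GENCODE start at 66535390. For these genes the bases next to the GENCODE start were not searched. Among 85 further mitosis genes with an entry, 45.9% held a CHR, 58.8% a CCAAT box and 30.6% both. A match is a run of letters and no measurement of binding.

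**Figure D1:**
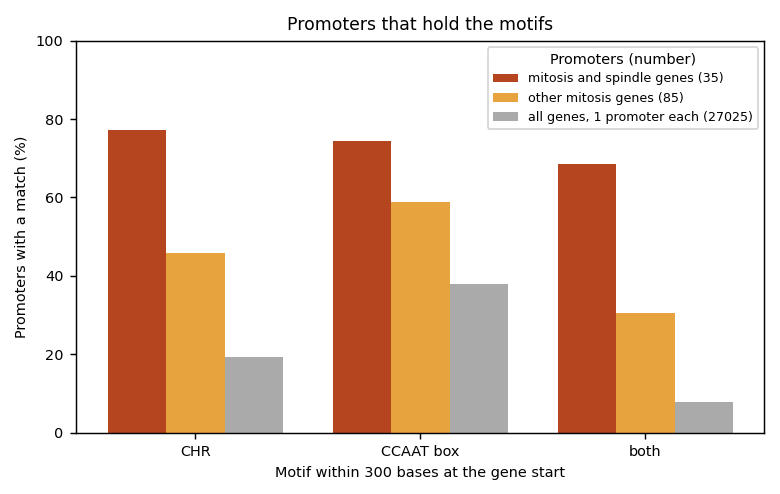
Share of promoters (%) with a match to CHR, to a CCAAT box and to both within 300 bases at the gene start, for 35 mitosis and spindle genes, 85 other mitosis genes and 27025 genes. Both motifs are in 68.6% of the mitosis and spindle genes' promoters and in 7.7% of all.

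Per kilobase of summed exon length, the level in YWT was highest for Cdc20, the activator of the anaphase-promoting complex, at 53.4 ± 14.5 CPM per kb (SD, n = 4). Ccnb2, a B-type cyclin, followed at 42.7 ± 11.1 CPM per kb, and their ranges over libraries overlapped. At the other end, Cenpf, a large kinetochore protein, was at 2.03 ± 0.675 CPM per kb and Anln, the actin-binding cytokinesis protein anillin, at 3.34 ± 1.23 CPM per kb, which overlapped as well. Exons of 9 of the 42 genes overlap a gene on the other strand, and those of 2 a gene on the same strand. Ccnb1, Ccnb2 and Kif4 have annotated pseudogenes, with which reads could be shared. Cdc20, Ccna2, Kif20a, Ncapd2 and Top2a, described below, are among the 11 with an overlap.

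The comparison of OKO with YKO asked how the genes differ with age when Gadd45b is knocked out. All 42 genes were lower in OKO, by a median of -1.05 on the log2 scale, whereas the median of all 33690 genes tested was 0.23. By the quasi-likelihood test of edgeR with Benjamini-Hochberg adjustment, 2 of the 42 fell past the threshold (a fold change over 1.5 with an adjusted p under 0.05), Espl1 and Ncapd2, against 0.692% of all genes tested. At an unadjusted p of 0.05, 32 of the 42 were lower, against 7.93% of all genes. The 2 calls depended on single libraries. Leaving out OKO7 gave 19 calls (3.25% of all genes), leaving out OKO2 gave 5 (0.715%), leaving out OKO1 gave 1 (0.748%), leaving out YKO2 gave 1 (0.350%), and leaving out any other YKO or OKO library gave 0. DESeq2 called 10 of the 42 lower, against 2.60% of all genes. The scaling mattered to the genes as a whole. With upper-quartile factors the median of all genes moved from 0.23 to 0.43 and that of the 42 to -0.93, and the calls over all genes went from 201 higher and 233 lower to 710 higher and 368 lower, with 3 of the 42 lower.

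The OKO libraries differed more among themselves than those of any other group. The mean log2(CPM + 1) of the 42 genes was 6.26, 5.60, 6.23 and 6.14 in YKO1 to YKO4. In OKO1 to OKO7 it was 3.71, 5.68, 3.23, 5.12, 4.69, 5.11 and 6.07. OKO7 thus stood within the YKO range and OKO2 just above its lowest library, while OKO1 and OKO3 lay far under all others. The means ± SD were 6.06 ± 0.309 in YKO (n = 4) and 4.80 ± 1.02 in OKO (n = 7). Summed over the 42 genes, CPM ranged 7.12-fold within OKO and 1.58-fold within YKO. OKO1 and OKO3 share a title set with YKO. With the OKO libraries of that set alone, 25 of the 42 genes were lower past the threshold, against 11.6% of all genes, and the median was -1.53. With OKO4 to OKO7 alone, 0 of the 42 passed by edgeR, against 0.300% of all genes, all 42 fold changes were below 0 with a median of -0.73, and the lowest adjusted p was 0.0761. With the title set as a covariate, 23 of the 42 passed, against 13.4% of all genes. Only OKO has libraries of both title sets, so this fit in effect compares OKO1 to OKO3 with YKO again. Without the 4 libraries with a TMM factor over 1.2, 0 passed and the median was -0.74.

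**Figure D2:**
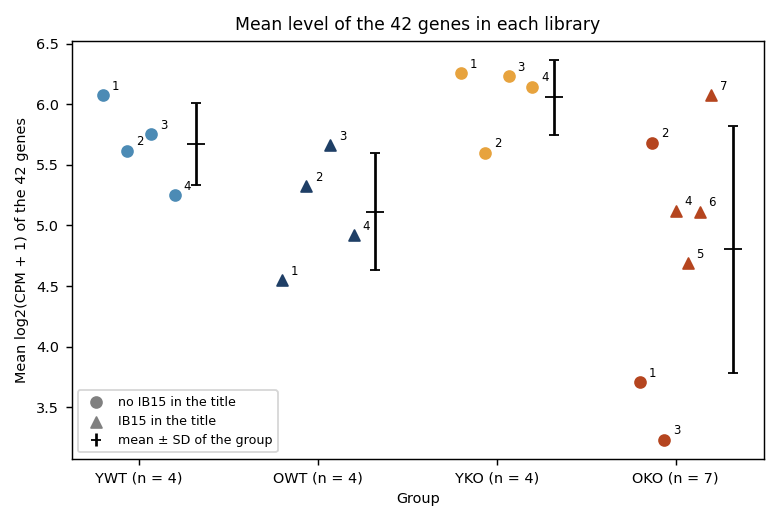
Mean log2(CPM + 1) of the 42 genes in each library by group, with replicate numbers, circles for titles without and triangles for titles with IB15, and the mean ± SD of each group. YKO libraries sit between 5.60 and 6.26, and OKO libraries spread from 3.23 to 6.07.

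Among the kinases and cyclins of mitotic entry, 0 of 6 passed by edgeR in OKO vs YKO, and 3 of 6 were lower at an unadjusted p of 0.05. Ccna2 (ENSMUSG00000027715.9, chr3:36564865-36572150, minus strand) encodes cyclin A2, which binds Cdk kinases in S and G2 phase. It was at 172, 112, 193 and 179 CPM in YKO1 to YKO4, and at 12.2 (lowest), 97.2 (median) and 197 (highest) CPM in OKO. The lowest OKO library, OKO3, had less than any YKO library and the highest, OKO7, more than any, so the groups overlapped. The log2 fold change was -0.84 (SE 0.48, adjusted p = 0.402 by edgeR). Ccnb2 was at -1.20 and Cdk1, the kinase that drives entry, at -1.11, while Ccnb1, the main mitotic cyclin, was at -0.76. Plk1 and Aurka, kinases of centrosome maturation, were at -0.94 and -1.07. Plk1 spanned 28.5-fold over the 19 libraries, from 3.35 CPM in OKO3 to 95.4 CPM in OKO7, the widest span of the 42 genes.

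Among the 8 checkpoint and anaphase genes, 1 fell past the threshold in OKO vs YKO. Espl1 encodes separase, the protease that cleaves cohesin at anaphase. It was at 92.6, 63.9, 71.6 and 63.6 CPM in YKO1 to YKO4. In OKO it was at 8.76 (lowest), 23.8 (median) and 54.0 (highest) CPM. All 7 OKO libraries were under all 4 YKO libraries, as was the case for 3 of the 42 genes against 1.48% of all genes, the other 2 being Ncapd2 and Bub1b. Espl1 fell by 1.47 on the log2 scale (SE 0.36, 2.77-fold, adjusted p = 0.0415 by edgeR). Its value was -1.83 with OKO1 to OKO3 alone (adjusted p = 0.00755 by edgeR), and with OKO4 to OKO7 alone the value was -1.19 (adjusted p = 0.127 by edgeR).

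Cdc20 (ENSMUSG00000006398.15, chr4:118432901-118437352, minus strand) was at 148, 107, 172 and 162 CPM in YKO1 to YKO4, and at 14.7, 77.8 and 168 CPM as the lowest, median and highest in OKO. Its OKO7 library reached the YKO range, so the groups overlapped, and the log2 fold change was -1.01 (SE 0.41, adjusted p = 0.231 by edgeR). Bub1b, the checkpoint protein BubR1, was at -1.24 and Ttk, the kinase Mps1 that sets the checkpoint in motion, at -1.10. Mad2l1, the Mad2 protein that inhibits Cdc20, was at -0.77 and Sgo1, which guards centromeric cohesin, at -0.76. The 2 smallest differences among all 42 genes were in this group. Pttg1 encodes securin, the inhibitor that keeps separase inactive, and was at -0.28. It was at 28.6 to 47.1 CPM in YKO and 19.5 to 41.4 CPM in OKO, and it was the least variable of the 42 genes, spanning 2.41-fold over all libraries. Bub1, the kinase that marks centromeres, was at -0.35, with 37.4 CPM in OKO2 as its highest library and 3.60 CPM in OKO3 as its lowest.

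The chromosomal passenger complex corrects faulty spindle attachments and has 4 members, of which 0 passed by edgeR and 3 were lower at an unadjusted p of 0.05. Incenp (ENSMUSG00000024660.9, chr19:9872296-9899551, minus strand), its scaffold, was at 154, 106, 151 and 157 CPM in YKO1 to YKO4. In OKO it was at 24.1 (lowest), 65.8 (median) and 118 (highest) CPM. YKO2 stood apart from the other 3 YKO libraries and was under OKO7, and the groups overlapped there alone. The log2 fold change was -1.14 (SE 0.30, adjusted p = 0.0651 by edgeR). Aurkb, the kinase of the complex, was at -1.32, Cdca8, also called borealin, at -1.17 and Birc5, also called survivin, at -0.88.

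All 7 kinetochore and centromere genes were lower in OKO vs YKO at an unadjusted p of 0.05, and 0 passed the threshold by edgeR. Cenpa (ENSMUSG00000029177.9, chr5:30666777-30674830, plus strand), the histone H3 variant of centromeres, was at 139, 87.4, 171 and 166 CPM in YKO1 to YKO4. In OKO it was at 15.3 (lowest), 56.5 (median) and 136 (highest) CPM, so OKO7 reached the YKO range. The log2 fold change was -1.21 (SE 0.42, adjusted p = 0.152 by edgeR). Cenpe, a kinetochore motor, was at -1.19 and Cenpf at -1.10. The 4 subunits of the Ndc80 complex, which grips microtubules, were at -0.76 (Ndc80), -1.09 (Nuf2), -0.93 (Spc24) and -0.85 (Spc25).

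Of the 8 kinesins and spindle genes, 0 passed by edgeR and 5 were lower at an unadjusted p of 0.05. Kif20a, a kinesin of the central spindle, was at 127, 80.4, 105 and 102 CPM in YKO1 to YKO4. In OKO it was at 17.4 (lowest), 55.5 (median) and 95.6 (highest) CPM, and only OKO7 lay above the lowest YKO library. Its log2 fold change was -0.96 (SE 0.33, adjusted p = 0.150 by edgeR). Kif2c, which depolymerises microtubules at centromeres, had the largest difference of the 8, at -1.28. Nusap1 and Tpx2, microtubule-binding proteins of the spindle, were at -1.18 and -1.02, and Kif4, a chromosome-bound kinesin, at -0.79. Kif11, which pushes spindle poles apart, was at -0.52, and Kif23 and Prc1, both of the central spindle, were at -0.61 and -0.62.

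Both cytokinesis genes were lower at an unadjusted p of 0.05 and neither passed the threshold. Anln (ENSMUSG00000036777.8, chr9:22332012-22389188, minus strand) was at 50.6, 23.6, 46.4 and 37.0 CPM in YKO1 to YKO4, and at 4.60, 18.9 and 36.1 CPM as the lowest, median and highest in OKO. The groups overlapped at YKO2, and the log2 fold change was -1.08 (SE 0.38, adjusted p = 0.157 by edgeR). Ect2, which activates RhoA at the cleavage furrow, was at -1.23.

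Of the 7 condensin and chromosome structure genes, 1 fell past the threshold in OKO vs YKO, and all 7 were lower at an unadjusted p of 0.05. Ncapd2, a regulatory subunit of condensin I, was at 218, 152, 204 and 200 CPM in YKO1 to YKO4. In OKO it was at 38.4 (lowest), 94.2 (median) and 129 (highest) CPM, and every OKO library was under every YKO library. Ncapd2 fell by 1.17 on the log2 scale (SE 0.28, 2.25-fold, adjusted p = 0.0415 by edgeR). With OKO1 to OKO3 alone it was at -1.57 (adjusted p = 0.00682 by edgeR) and with OKO4 to OKO7 alone at -0.88 (adjusted p = 0.0761 by edgeR).

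Top2a (ENSMUSG00000020914.17, chr11:98992943-99024189, minus strand), the topoisomerase that untangles sister DNA, had the highest mean CPM of the 42 genes, and was at 268, 158, 204 and 227 CPM in YKO1 to YKO4. In OKO it was at 20.5 (lowest), 95.5 (median) and 236 (highest) CPM, so the groups overlapped. The log2 fold change was -0.97 (SE 0.44, adjusted p = 0.284 by edgeR). Ncapg and Ncaph, the other condensin I subunits, were at -1.18 and -1.20, and the shared ATPases Smc2 and Smc4 at -1.01 and -1.02. Mki67, which coats mitotic chromosomes and serves as a proliferation marker, was at -1.35.

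**Figure D3:**
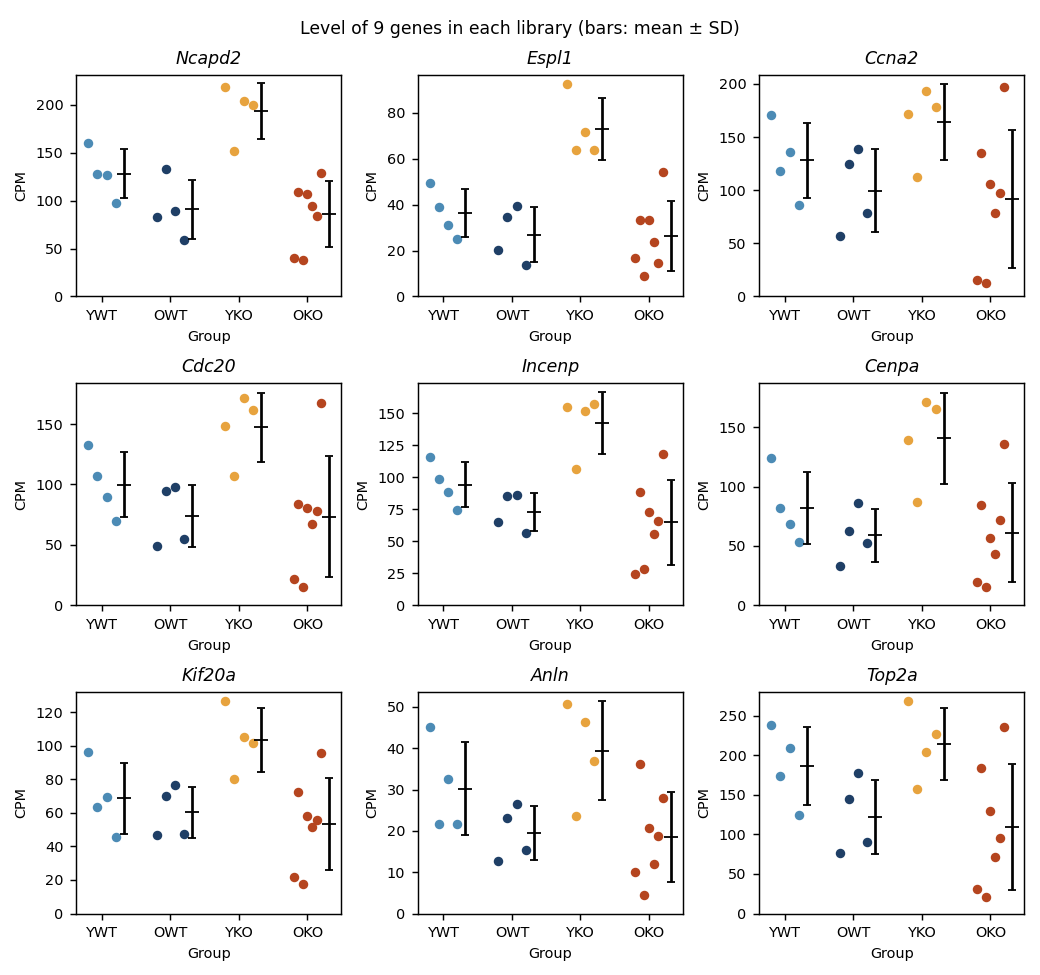
CPM of 9 genes in each library by group, with mean ± SD. For Espl1 and Ncapd2 all 7 OKO points lie under the 4 YKO points, and in the other 7 panels the OKO points reach into the YKO range.

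The comparison of OWT with YWT asked how the genes differ with age in the wild type. With all libraries, all 42 were lower in OWT, by a median of -0.49 against -0.05 over all genes. Without OWT1 the median was -0.31 with 2 genes above 0, and without YWT1 it was -0.34 with 3 above 0. By edgeR 0 of the 42 passed, against 0.00297% of all genes, and DESeq2 called 0. At an unadjusted p of 0.05, 3 were lower, Bub1, Cenpf and Smc4, against 1.74% of all genes (4.38% in either direction). That fit shares 1 estimate of spread over all 4 groups. With the OWT and YWT libraries alone in the fit, 18 of the 42 were lower at that p and 0 passed. The share of all genes at that p in the smaller fit is not given here. By role, the median log2 fold change was -0.61 for the condensin and chromosome structure genes, -0.60 for the kinetochore genes, -0.57 for the cytokinesis genes, -0.54 for the passenger complex, -0.46 for the checkpoint and anaphase genes, -0.42 for the kinesins and -0.36 for the kinases and cyclins. The mean log2(CPM + 1) was 6.07, 5.61, 5.75 and 5.25 in YWT1 to YWT4 and 4.55, 5.32, 5.66 and 4.92 in OWT1 to OWT4, so the groups overlapped. Bub1 was the only gene of the 42 with every OWT library under every YWT library, against 1.90% of all genes. It was at 19.7, 12.6, 16.4 and 13.2 CPM in YWT1 to YWT4 and at 4.22, 6.37, 11.1 and 6.10 CPM in OWT1 to OWT4, with a log2 fold change of -1.16 (SE 0.53, adjusted p = 0.9999 by edgeR).

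Cenpf had the largest difference in the wild type, at -1.18 (SE 0.46, adjusted p = 0.979 by edgeR). It was at 36.6, 25.8, 42.9 and 19.8 CPM in YWT1 to YWT4 and at 7.80, 7.76, 25.7 and 13.9 CPM in OWT1 to OWT4, so OWT3 stood with the young libraries. Cenpe was at 26.8 to 33.2 CPM in YWT and at 8.31, 8.91, 34.5 and 12.1 CPM in OWT1 to OWT4, again with OWT3 apart. OKO4 and OKO5, which share the title set of OWT, also had low Cenpf, at 8.02 and 6.32 CPM, although their Cdc20 was at 80.2 and 67.3 CPM. Pttg1 was at -0.01, with 35.0 to 41.5 CPM in YWT and 35.0 to 42.1 CPM in OWT. Over the 42 genes, the fold change in OWT vs YWT had a Spearman rho of -0.36 with the length of the longest coding transcript and 0.38 with its GC content. These genes share the same libraries and are not independent, and the part of length or base composition in the difference was not tested.

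Smc4 and Mki67 showed a like split of the OWT libraries. Smc4 was at 149, 131, 160 and 98.5 CPM in YWT1 to YWT4 and at 58.8, 53.9, 120 and 85.2 CPM in OWT1 to OWT4, with a log2 fold change of -0.76 (SE 0.32, adjusted p = 0.9999 by edgeR). Mki67 was at 137, 121, 133 and 83.4 CPM in YWT and at 29.6, 39.6, 124 and 52.5 CPM in OWT, at -0.95 (SE 0.52). For both, OWT3 stood within the range of the young libraries. Top2a was at 238, 174, 209 and 124 CPM in YWT and at 76.3, 145, 177 and 91.0 CPM in OWT, at -0.61 (SE 0.51), with more overlap between the groups.

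Espl1 and Ncapd2, which were lower in OKO than in YKO past the threshold, were at -0.43 and -0.50 in OWT vs YWT. Espl1 was at 49.4, 39.1, 31.3 and 25.2 CPM in YWT and at 20.1, 34.6, 39.6 and 13.7 CPM in OWT. Ncapd2 was at 160.5, 128, 127 and 97.9 CPM in YWT and at 83.3, 133, 89.2 and 58.5 CPM in OWT. For both, the young and old wild type libraries overlapped.

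Whether age acted differently in the 2 genotypes was tested as the interaction of age and genotype. By edgeR 0 of the 42 genes passed, against 0% of all genes, with 0 at an unadjusted p of 0.05 (4.62% of all genes in either direction) and 0 by DESeq2. The interaction was below 0, meaning a larger decrease in the knockout, for 40 of the 42 genes, with a median of -0.48 and a lowest adjusted p of 0.811. The median depended on the libraries used. It was -1.05 with the OKO libraries of the first title set alone, where 10 of the 42 were below 0 at an unadjusted p of 0.05 and 0 passed, and -0.09 with 15 genes above 0 without the 4 libraries with a TMM factor over 1.2. Without OKO7 it was -0.78, and without OWT3, OKO3 or OKO1 it was -0.30, -0.30 and -0.32. With the title set as a covariate it was -0.20. For Espl1 it was -1.04 (SE 0.55) and for Ncapd2 -0.67 (SE 0.44), both with an adjusted p of 0.811 by edgeR. The 2 genes above 0 were Bub1, at 0.81, and Cenpf, at 0.08. A difference between the genotypes in the response to age was therefore not shown for any of the 42 genes at this spread of libraries.

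The comparison of YKO with YWT asked how the knockout differs from the wild type in young mice, and it uses the YKO libraries that OKO was compared with. Of the 42 genes 40 were above 0, with a median of 0.37 against -0.02 over all genes, and 2 kinesins, Kif11 at -0.05 and Kif23 at -0.26, were below. By edgeR 0 passed, against 0.0267% of all genes, and DESeq2 called 0. At an unadjusted p of 0.05 only Espl1 was higher, against 1.91% of all genes (4.59% in either direction). That fit shares 1 estimate of spread over all 4 groups. With the YKO and YWT libraries alone in the fit, 16 of the 42 were higher at that p and 0 passed. The share of all genes at that p in the smaller fit is not given here. Espl1 was at 63.6 to 92.6 CPM in its 4 YKO libraries, all above its 4 YWT libraries, at 25.2 to 49.4 CPM. Such a gap held for 1 of the 42 genes, against 2.12% of all genes. The log2 fold change of Espl1 was 1.01 (SE 0.42, 2.01-fold, adjusted p = 0.952 by edgeR). By role, the median was highest for the passenger complex, at 0.58, and the kinases and cyclins, at 0.57, and lowest for the kinesins and spindle genes, at 0.19. Ncapd2 was at 0.59 (SE 0.33), Cenpa at 0.78 (SE 0.48), Aurkb at 0.78 (SE 0.54) and Ncaph at 0.72 (SE 0.56). Over the 42 genes, the fold change had a Spearman rho of 0.59 with the GC content of the longest coding transcript, which ranged from 39.7% to 56.1%. The rho with GC content was -0.63 for the interaction, -0.29 in OKO vs YKO and 0.07 in OKO vs OWT. The part of base composition was not tested. Some markers of other blood cells were also above 0 in YKO vs YWT, with 0 markers past the threshold by edgeR. They were all 11 erythroid markers (median 1.25, 2 at an unadjusted p of 0.05), all 10 of B cells (median 0.98, 2 at that p) and all 7 of T cells (median 2.27, 7 at that p). Below 0 were all 8 plasma cell markers (median -0.38), 5 of 7 of megakaryocytes, 4 of 9 of granulocytes (1 at that p) and 2 of 3 of multipotent progenitors. Of the 10 HSC markers 9 were below 0 (median -0.49, 1 at that p). The T cell sum was 17.4 to 29.8 CPM in YWT and 27.2 to 137 CPM in YKO. The part of other blood cells in the levels of the 42 genes was not tested.

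The comparison of OKO with OWT asked the same in old mice. By edgeR 0 of the 42 passed, against 0.0327% of all genes, with 0 lower at an unadjusted p of 0.05 (2.23% of all genes, and 8.14% in either direction) and 0 calls by DESeq2. The median over the 42 was -0.10 against 0.12 over all genes (0.24 with DESeq2 size factors in edgeR and 0.36 with upper-quartile factors), and 31 genes were below 0 and 11 above, whereas these scalings gave 22 and 20, and 14 and 28. The sign of the median turned with the libraries used too, and it was 0.22 with OKO4 to OKO7 alone, which share the title set of OWT. Group means lay close together for Ncapd2, Espl1 and Cdc20. Ncapd2 was at 90.9 ± 30.8 CPM in OWT (SD, n = 4) and 86.2 ± 34.9 CPM in OKO (SD, n = 7), Espl1 at 27.0 ± 12.1 and 26.4 ± 15.3 CPM, and Cdc20 at 73.8 ± 25.7 and 73.3 ± 50.4 CPM. Bub1 had the largest difference of the 42 genes, at 0.87, with 6.94 ± 2.92 CPM in OWT and 12.7 ± 12.2 CPM in OKO. The spread of the OKO libraries was in each case as large as or larger than that of OWT.

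**Figure D4:**
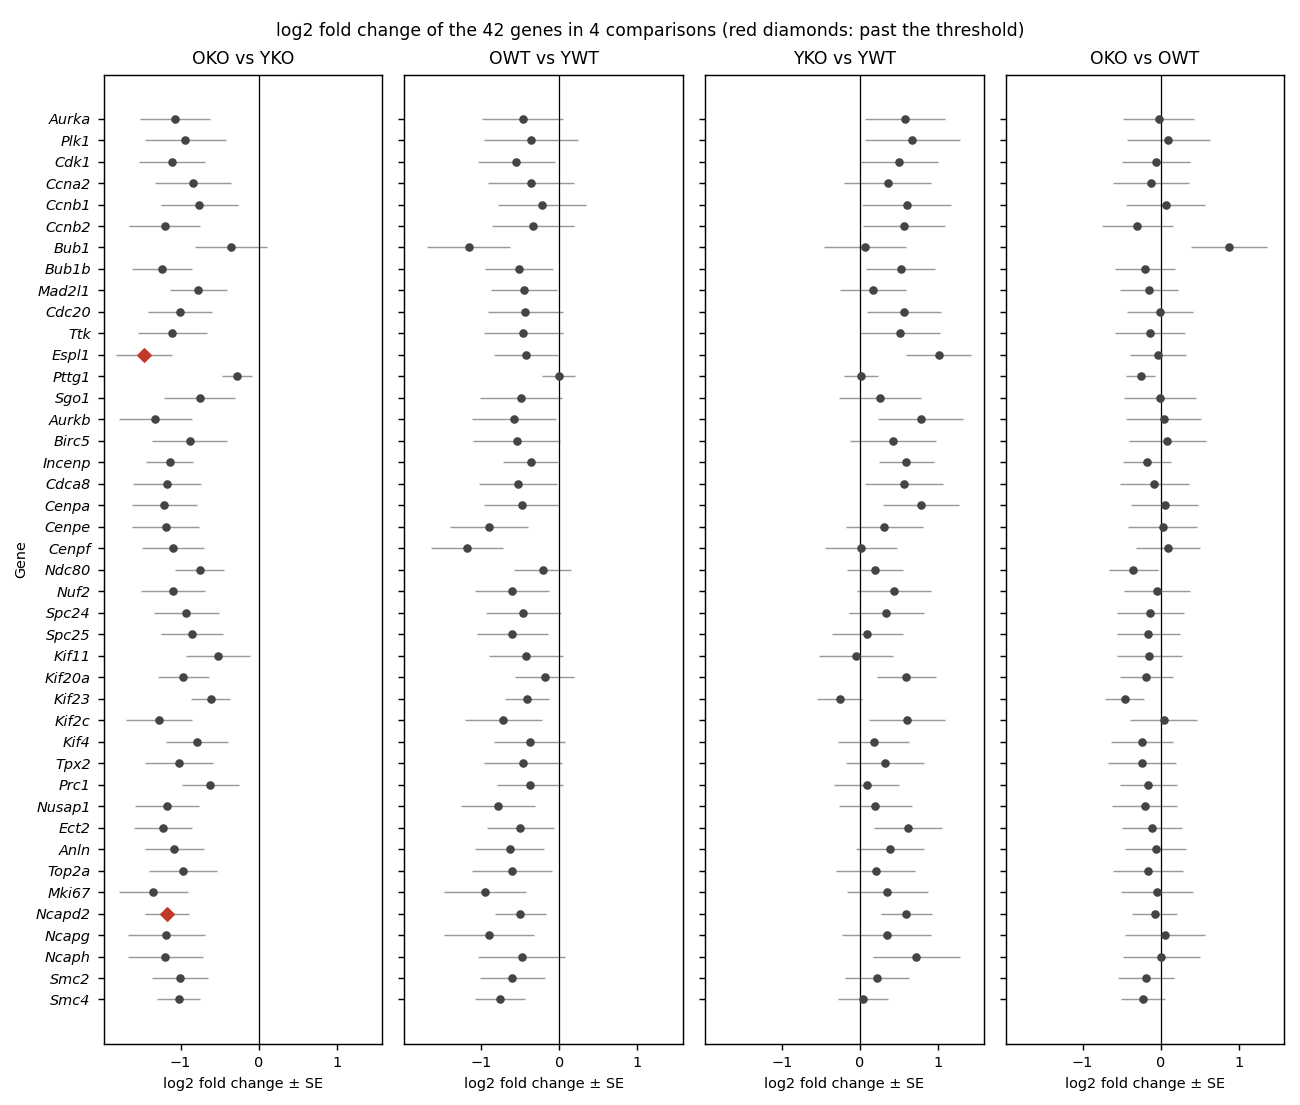
log2 fold change ± SE of the 42 genes in 4 comparisons, with red diamonds for the genes past the threshold. All 42 points lie below 0 in OKO vs YKO and in OWT vs YWT, 40 lie above 0 in YKO vs YWT, and the red diamonds are Espl1 and Ncapd2 in OKO vs YKO.

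Across the 19 libraries the genes varied together. The correlation of log2(CPM + 1) of each gene with the mean of the others had a median Pearson r of 0.97 and exceeded 0.9 for 34 of the 42 genes. The points share their library, with its depth and scaling, so this is a description. It was 0.966 after the group means were taken out, and 0.932 over the 17 libraries without OKO1 and OKO3. Nuf2 and Ncaph followed the others most closely, at 0.992 and 0.991. Pttg1 followed them least, at 0.538, and next came Smc4 at 0.780, Bub1 at 0.799, and Cenpe and Cenpf at 0.807 each. OKO3 was the lowest library for 35 genes and OKO1 for 3, while OKO5 was the lowest for Cenpe, Cenpf, Smc2 and Smc4. YKO1 was the highest for 16 genes and YKO3 for 9.

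**Figure D5:**
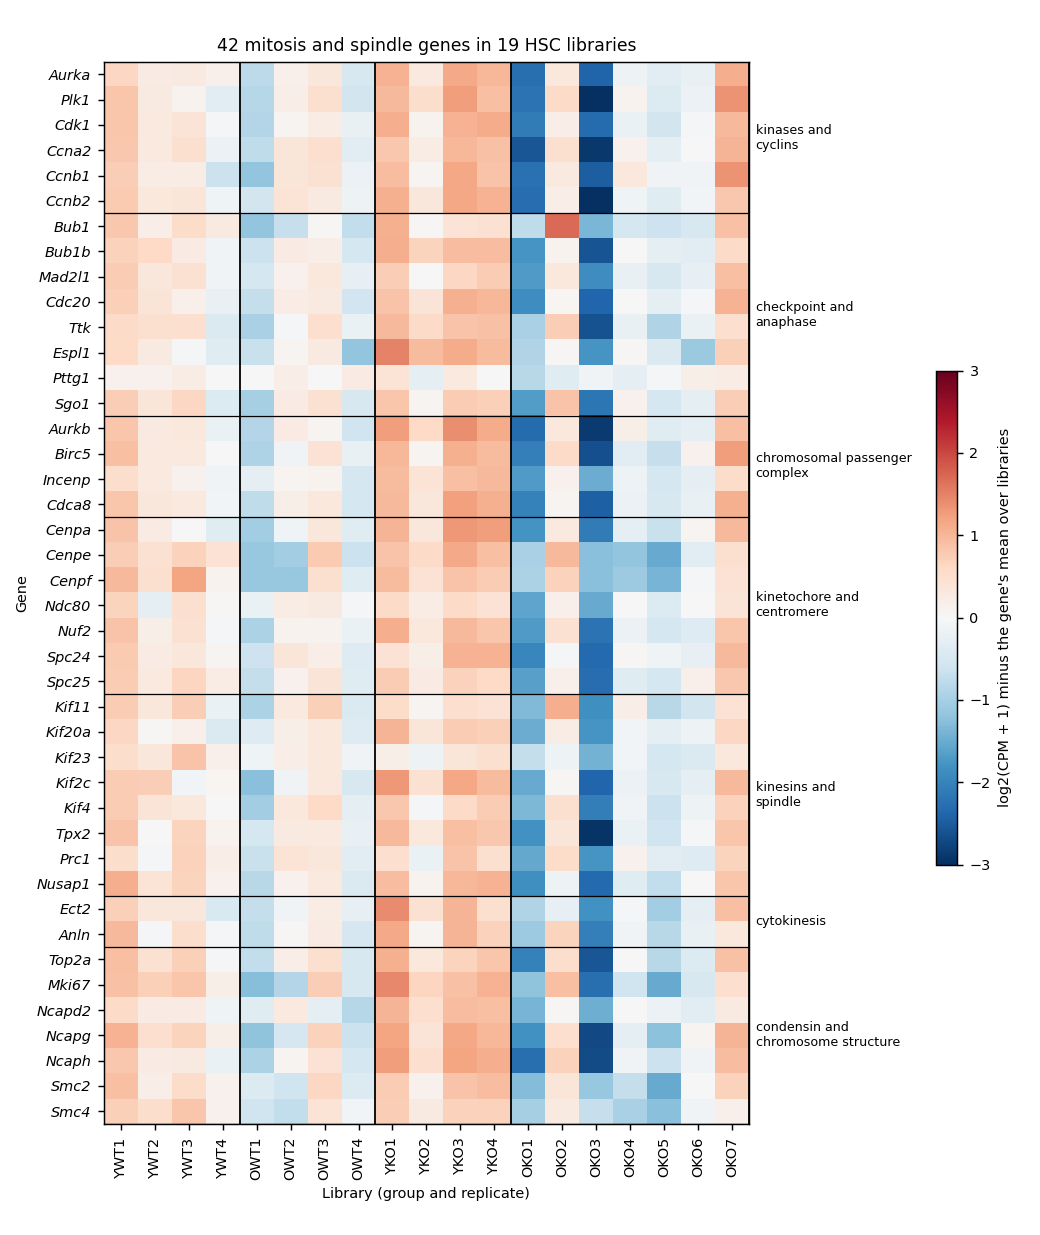
Heat map of log2(CPM + 1) minus each gene's mean over the 19 libraries, with the 42 genes in rows by role and libraries in columns by group. OKO1 and OKO3 are low for nearly every gene, Pttg1 varies least, and Cenpe and Cenpf are also low in OWT1, OWT2, OKO4 and OKO5.

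Of 12282 other genes with a mean of at least 5 CPM, the 10 most like the mean of the 42 genes over the 19 libraries were Cdc6, Rrm1, Cdca3, Shcbp1, Cenpi, Ube2c, Dtl, Trip13, Tacc3 and Fignl1, with Pearson r from 0.991 for Cdc6 to 0.980 for Fignl1. Cdc6 loads the replicative helicase and Rrm1 is a subunit of ribonucleotide reductase, both of DNA replication rather than mitosis. Ube2c, the ubiquitin-conjugating enzyme of the anaphase-promoting complex, Cenpi, of the inner kinetochore, and Tacc3, of the spindle, are also in the list of further mitosis genes.

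That list held 99 further genes of mitosis. In OKO vs YKO 1 of them fell past the threshold, the spindle kinesin Kif18a at -1.06 (SE 0.23, adjusted p = 0.0219 by edgeR), and 0 rose. Below 0 were 97 of the 99, with a median of -0.64, nearer to 0 than that of the 42 genes. The difference between the lists was not tested. By complex, the median was -0.998 for 17 other spindle and cytokinesis genes, -0.92 for 10 entry kinases and phosphatases, -0.81 for 15 outer kinetochore and checkpoint genes and -0.73 for 19 inner kinetochore genes. It was -0.37 for 17 subunits and partners of the anaphase-promoting complex, -0.40 for 3 condensin II subunits and -0.23 for 9 cohesin genes. The 9 regulators of the DREAM and FoxM1 program, had a median of -0.59 with 0 past the threshold. By edgeR 0 of the 99 passed in the other comparisons, with 4 at an unadjusted p of 0.05 in OWT vs YWT, 2 in OKO vs OWT and 2 in YKO vs YWT, where 4.38%, 8.14% and 4.59% of all genes were at that p in either direction.

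The Lin- gate, stained in the study with Ter119, B220, CD3, Mac-1, Gr-1 and IL7ra, is meant to remove erythroid, lymphoid and myeloid cells. Some markers of such cells nonetheless differed between OKO and YKO. Of 11 erythroid markers, 2 fell past the threshold by edgeR, and their summed level was 2671 to 6920 CPM in YKO and 662 to 5332 CPM in OKO, with none at 0 in any library. The OKO libraries differed widely here too. Among these markers, Klf1 was at 11.1, 135.5, 3.25, 68.4, 16.3, 110 and 332 CPM in OKO1 to OKO7. Car2 varied less, at 513, 1381, 629, 1346, 823, 1965 and 2221 CPM. Of 10 B cell markers 6 fell, with 204 to 1550 CPM in YKO and 29.5 to 214 CPM in OKO, and none was at 0 in any library. Of 7 T cell markers 3 fell, with 27.2 to 137 CPM in YKO and 9.24 to 44.6 CPM in OKO, and Cd8a alone was at 0 in 2 libraries. In YWT the erythroid sum was 1855 to 4295 CPM and the B cell sum 227 to 667 CPM. Of 9 granulocyte markers 1 rose, Prtn3, a protease of neutrophil granules, from 13.5 to 69.6 CPM in YKO to 118 to 293 CPM in OKO, and 4 of the 9 were above 0. Of 7 megakaryocyte markers 0 passed by edgeR. The 8 plasma cell markers had 0 past the threshold, with 6 below 0 and 2 above. The 3 multipotent progenitor markers also had 0 past it, and 2 were above 0. The other, Cd48, was at -1.48 and lower at an unadjusted p of 0.05 by edgeR. Cd48 was at 19.4 to 46.9 CPM in YKO. In OKO it was lowest in OKO3, at 0.31 CPM, and OKO1, at 1.17 CPM, and highest in OKO7, at 35.9 CPM. The HSC markers were above 0 for 9 of 10, with 5 at an unadjusted p of 0.05 and 0 past the threshold. In OWT vs YWT 0 markers passed by edgeR, while all 9 granulocyte markers were above 0 (median 1.74, 7 at an unadjusted p of 0.05) and 8 of 10 B cell markers below (6 at that p). In OKO vs OWT all 9 granulocyte markers were below 0 (median -1.74, 8 at that p). All 10 HSC markers were above 0 in OWT vs YWT (median 0.49, 2 at that p). All 10 were below 0 in OKO vs OWT (median -0.41, 1 at that p). Of the 11 erythroid markers, 9 were below 0 and 2 above in OWT vs YWT (1 lower at that p). In OKO vs OWT 5 erythroid markers were below 0 and 6 above. The part of these cells in the levels of the 42 genes was not tested. Of 7 listed Cdk inhibitor and retinoblastoma family genes (Cdkn1a, Cdkn1b, Cdkn1c, Cdkn2c, Rb1, Rbl1 and Rbl2), 0 passed in OKO vs YKO. Of these, 4 were above 0 (1 at an unadjusted p of 0.05) and 3 below. Their sum, which does not show such opposite differences, was 317 to 380 CPM in YKO and 281 to 435 CPM in OKO.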

How the data were processed

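The 19 RNA-seq libraries of HSCs were used, and the 10 WGBS samples were not analysed here. The authors prepared libraries with SMART-Seq v4, trimmed reads with Trim Galore 0.4.3, aligned them with STAR to mm10 (GENCODE M22) and deposited raw counts per gene symbol from featureCounts, with 1 file for each library. Whether strand or read mates were used in counting is not given in the sources used here. The 42 genes and the lists were chosen with earlier results of these data known.

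Counts were filtered with filterByExpr and scaled by TMM, and edgeR 4.0.16 in R 4.3.3 fitted 1 mean per group over all 19 libraries with its quasi-likelihood test. A gene passed where its fold change exceeded 1.5 and its p after Benjamini-Hochberg adjustment was under 0.05. The interaction was called on the adjusted p alone. DESeq2 1.42.0 was an alternative, beside other scalings, filters, covariates and left-out libraries. The study's methods name DESeq2. Values in every library are given for the genes past the threshold and for the gene with the highest mean CPM of each role. Other genes with library values (Bub1, Cenpe, Cenpf, Mki67, Plk1, Pttg1 and Smc4) were chosen after their values were seen. The printed promoters are those of at most 5 such genes with both motifs. Lengths and positions are those of GENCODE M21. The scripts were tested on simulated data. The labels and methods used here do not say whether each library came from a separate animal, so p-values measure the spread between these libraries.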

Additional observations from a re-analysis of the deposited data

Results flagged for a closer look

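In YKO, the Incenp level of YKO2, 106 CPM, lay far from the other 3 libraries of the group, which were at 151 to 157 CPM, by Dixon's criterion for 4 samples. It was the only such case in 40 groups of values tested for outlying libraries, and chance gives about 1 in 20, or 2 here. YKO2 was also the lowest YKO library for the mean of the 42 genes.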

How the results depend on the processing

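In OKO vs YKO the number of the 42 genes past the threshold was 2. The share of all genes lower past the threshold is given in parentheses. The number became 10 by DESeq2 (2.60%), 4 with a mean of at least 5 CPM (3.17%), 0 with only the groups compared (0.236%), 23 with the title set as a covariate (13.4%), 25 with OKO of the first title set alone (11.6%), 0 with OKO of the IB15 set alone (0.300%) and 0 without the 4 libraries with a TMM factor over 1.2 (0.287%). The term for the title set rests on the OKO libraries alone, so its fit in effect repeats that with OKO of the first title set. Leaving out 1 library gave 0 to 19. The fits with OKO of the IB15 set alone and without the 4 libraries were chosen after seeing the data. With the replicate number as a block it was 12 (3.46%), but the numbers did not pair the libraries, since the correlation of same-numbered libraries ran from -0.45 to 0.277 over 16 pairs. The cause of these changes was not tested.

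The median of the 42 genes in OKO vs YKO was below 0 under all 31 alternatives (-1.58 to -0.73), and in YKO vs YWT it was above 0 under all 29 (0.26 to 0.55). In OWT vs YWT it was below 0 under all 29, from -1.32 to -0.31, with -1.32 under the title set as a covariate, a term that there rests on the OKO libraries alone. In OKO vs OWT it ran from -0.53 to 0.22 and was below 0 under 22 of 30. The interaction median ran from -1.05 to -0.09 and was below 0 under all 28. In the 3 other comparisons and the interaction 0 of the 42 passed under each alternative. Of single genes, Bub1 in OKO vs YKO was at 0.0034 with OKO of the first title set alone, and Kif20a in OWT vs YWT ran from -0.340 to 0.0215 as single libraries were left out, above 0 without YWT replicate 1. Each of the 42 genes had at least 91 counts in each library.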
